A study of Homo sapiens with 4 samples.

Results

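The E2F transcription factors and the RB family of pocket proteins were read by 21 probe sets for 10 genes on 4 arrays of HepG2 RNA. The members were E2F1, E2F2, E2F3, E2F5, E2F6, E2F7, E2F8, RB1, RBL1 and RBL2, a set that does not include E2F4. They were taken as every probe set with exactly 1 gene symbol among these names, out of 41091 probe sets with 1 symbol for 19775 genes. All 10 genes had at least 1 such probe set. HepG2 is a human line grown from a liver tumour, with many traits of hepatocytes. The cells were starved of serum and then given 200 ng/ml APRIL (a soluble cytokine related to tumour necrosis factor) for 2, 6 or 12 h, with 1 array for each time. The 0 h array was of untreated cells, and no untreated array of 2, 6 or 12 h was used here, so time in culture and APRIL cannot be told apart.

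E2F proteins bind a short GC-rich site in the promoters of genes needed for S phase, most of them as dimers with a DP protein. E2F1, E2F2 and E2F3 activate these genes once cyclin-dependent kinases have released them from the pocket proteins RB1, RBL1 (p107) and RBL2 (p130). E2F5 works with the pocket proteins as a repressor in resting cells, and E2F6 represses without them, together with polycomb proteins. E2F7 and E2F8, the atypical members, bind DNA without a DP partner and repress the same S-phase promoters late in that phase. Several family genes are themselves known E2F targets, among them E2F1, E2F2, E2F7, E2F8 and RBL1. In liver E2F7 and E2F8 are known, from mouse, for their part in hepatocyte polyploidy.

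The deposited values are on a log2 scale and each was centred on its probe set's median over the 4 arrays, so no expression level is left and levels of different genes cannot be compared. Hepatocyte markers therefore could not be used to check the cell label, although 8 of the 9 chosen had a probe set. A gene's log2 ratio is the median over its probe sets of the difference between 2 arrays, and 2-fold is a log2 ratio of 1 in size. There are no replicates and therefore no tests. The 2 h over 0 h ratios of all genes had a robust SD of 0.16, which serves as a yardstick only. For the 18 control probe sets of bacterial spike-in RNAs the median difference between the 12 h and 0 h arrays was -0.35 (log2). Relative to them every 12 h ratio is 0.35 higher.

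E2F8 was the 1 family gene past 2-fold at any time against 0 h, and it was lower at 12 h. E2F7 was next lowest at 12 h, RBL1 was modestly lower, and E2F6 was higher. E2F1, E2F2, E2F3, E2F5, RB1 and RBL2 had 12 h log2 ratios between -0.08 and 0.17. These are medians over probe sets: those of E2F5 were at 0.76 and -0.56, and E2F2 had one at -1.21. At 2 h and at 6 h 0 of 10 members were past 2-fold in either direction, against 0.0455% and 0.384% of all genes. At 12 h 1 of 10 was past 2-fold lower, against 0.986% of all genes, and 0 of 10 were past 2-fold higher, against 0.946%. At the level of probe sets 1 of 21 was past 2-fold lower at 6 h, RBL1 1559307_s_at at -1.01, against 385 of all 41091 with 1 symbol. At 12 h 3 of 21 were past 2-fold lower, against 1.57% of all probe sets with 1 symbol, and they belonged to E2F2, E2F7 and E2F8. Under spike-in centring 2 of 21 were, those of E2F7 and E2F8. Another 2 were then past 2-fold higher, E2F5 221586_s_at at 1.12 and E2F6 203957_at at 1.02. With that centring 770 of all 19775 genes were past 2-fold at 12 h in either direction, against 382 without it. Its share over all probe sets was not computed.

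**Figure D1:**
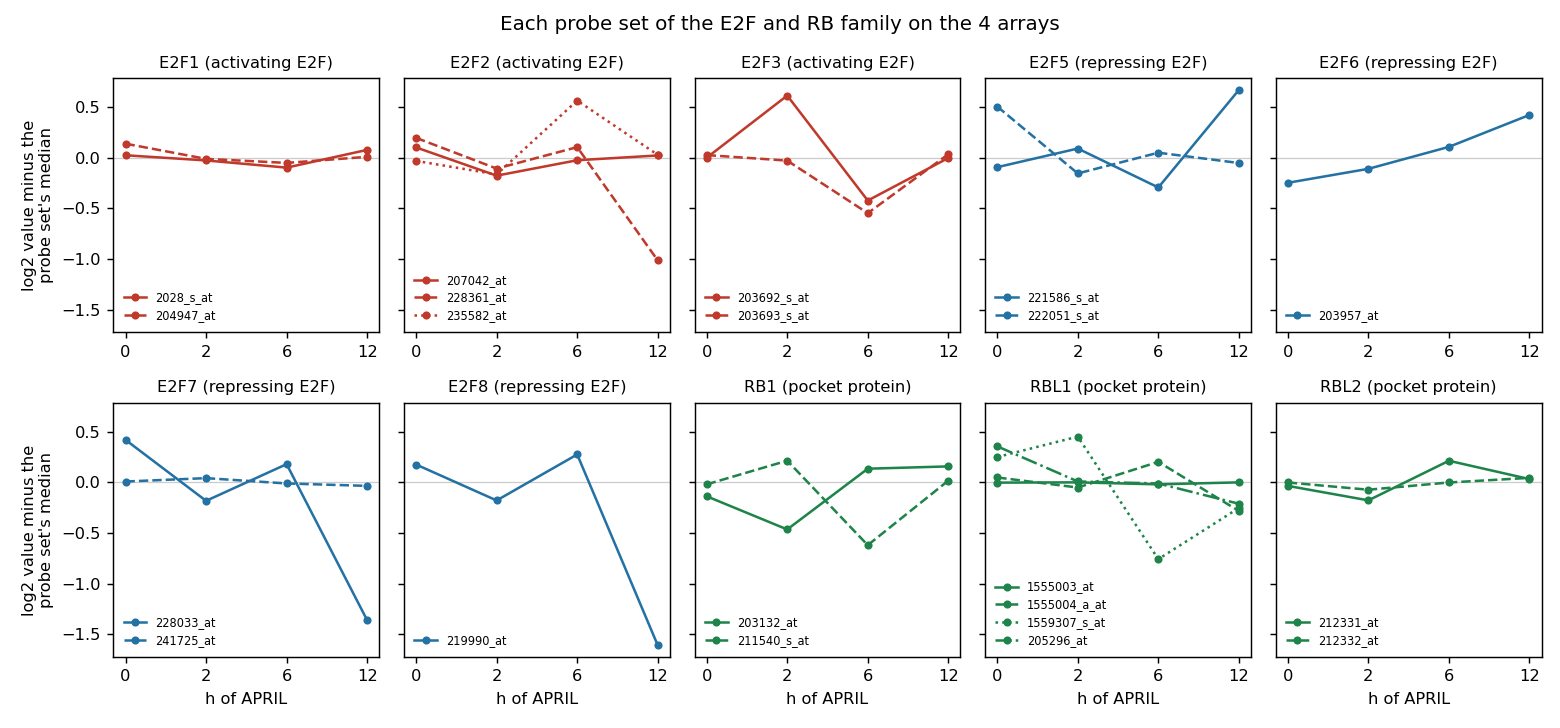
Value of each probe set of the 10 genes on the 4 arrays, as log2 value minus the probe set's median over the arrays, against hours of APRIL (evenly spaced). Each line is 1 probe set, red for activating E2Fs, blue for repressing E2Fs and green for pocket proteins. E2F8 219990_at and E2F7 228033_at reach -1.61 and -1.36 at 12 h, while the second E2F7 probe set stays between -0.03 and 0.04.

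By gene median the activating E2Fs were close to their 0 h values at 12 h, although 1 of the 3 E2F2 probe sets was 2.31-fold lower. Under spike-in centring these medians were above 0, from 0.27 for E2F2 to 0.36 for E2F3. For E2F1, the founding activator, probe set 204947_at had values of 0.14, -0.01, -0.05 and 0.01 at 0, 2, 6 and 12 h, and 2028_s_at had 0.03, -0.03, -0.10 and 0.08. The probe sets spanned 0.19 and 0.18 over the 4 arrays, narrower than the median range of 0.37 over all probe sets with 1 symbol. The E2F1 log2 ratio was -0.10 at 2 h, -0.16 at 6 h and -0.04 at 12 h, the last turning to 0.31 when the arrays were centred on the spike-in RNAs. At 12 h the 2 probe sets lay on either side of 0, at -0.13 and 0.05.

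E2F2, the second activator, was read by 3 probe sets that did not run alike. Probe set 228361_at had 0.20, -0.11, 0.11 and -1.01 at 0, 2, 6 and 12 h, so its 12 h array stood far below the other three. Probe set 207042_at had 0.10, -0.18, -0.02 and 0.02, and 235582_at had -0.03, -0.16, 0.57 and 0.03, with 6 h its highest array. The log2 ratios at 12 h over 0 h were thus -1.21 (2.31-fold lower), -0.08 and 0.06, with an SD of 0.70 over the 3 probe sets, and the gene's median was -0.08. That median turned to 0.27 under spike-in centring, and 228361_at was at -0.86 under it, no longer past 2-fold. All 3 probe sets were lower at 2 h than at 0 h, by 0.13 to 0.30 on the log2 scale.

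E2F3, which has an activating long isoform and a shorter one, was read by 2 probe sets of the _s_at kind, which may match more than 1 transcript. Probe set 203693_s_at had 0.03, -0.03, -0.55 and 0.04 at 0, 2, 6 and 12 h. Probe set 203692_s_at had 0.0013, 0.62, -0.42 and -0.0013. Both were lowest at 6 h and back near the 0 h value at 12 h, and 1 of them was high at 2 h. The E2F3 log2 ratio at 6 h over 0 h was -0.50 (SD 0.11 over the 2 probe sets), and 2.57% of all genes were as low or lower. Against 2 h the 6 h ratio was -0.78, and at 12 h over 0 h it was 0.0031.

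Among the repressing E2Fs, E2F5 had 2 probe sets that differed in direction. Probe set 221586_s_at had -0.09, 0.09, -0.29 and 0.67 at 0, 2, 6 and 12 h, and 222051_s_at had 0.51, -0.15, 0.05 and -0.05. The first was highest at 12 h and the second at 0 h. The 12 h log2 ratios were 0.76 and -0.56, so the median of 0.10 stands for neither (SD 0.93). E2F6, the polycomb-linked repressor, was read by 1 probe set, with -0.25, -0.11, 0.11 and 0.42 at 0, 2, 6 and 12 h. Its value was higher on each later array, and the log2 ratio over 0 h was 0.14 at 2 h, 0.35 at 6 h and 0.67 at 12 h (1.59-fold). At 12 h 634 of 19775 genes (3.21%) were as high or higher, and E2F6 reached 1.02, past 2-fold, under spike-in centring.

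The atypical repressor E2F8 had 0.18, -0.18, 0.28 and -1.61 at 0, 2, 6 and 12 h in its 1 probe set, 219990_at. The first 3 arrays spanned 0.45 and the 12 h array stood apart below them. The log2 ratio over 0 h was -0.35 at 2 h, 0.10 at 6 h and -1.79 at 12 h (3.45-fold lower), and 12 h over 6 h it was -1.88. At 12 h 24 of 19775 genes were as low or lower (0.121%), E2F8 itself included. In RNA of whole cultures, fewer cells that express a gene and less RNA per cell cannot be told apart. In the step between 6 h and 12 h 17 genes were as low as E2F8 or lower. In that step 1 of 10 members was past 2-fold lower, against 0.885% of all genes, and between 2 h and 6 h 0 of 10 were in either direction, against 0.445%. Under spike-in centring the 12 h ratio was -1.43, still past 2-fold.

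E2F7, the other atypical repressor, was read by 2 probe sets of which 1 ran close to E2F8. Probe set 228033_at had 0.42, -0.18, 0.18 and -1.36 at 0, 2, 6 and 12 h, and its 12 h log2 ratio was -1.78 (3.44-fold lower). Probe set 241725_at had 0.01, 0.04, -0.01 and -0.03, with a 12 h ratio of -0.04. Only 1.83% of all probe sets with 1 symbol had a range over the 4 arrays as narrow as its 0.08. The gene's median was -0.91 with an SD of 1.23 over the 2 probe sets, so the size at 12 h depends on which is read, and it was -0.56 under spike-in centring. Which of the 2 follows the E2F7 transcript was not tested, since no signal level or probe sequence was used here. Probe sets of 1 gene lay 1 or more log2 units apart at 12 h for 3 of the 8 members with several (E2F2, E2F5 and E2F7), against 10.6% of all 10523 genes with several.

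The courses of E2F8, E2F7 and E2F2 were set beside each other by the Euclidean distance between their 3 log2 ratios over 0 h, which share the 0 h array. The E2F7 probe set 228033_at was the nearest family probe set to E2F8, at 0.42, and the E2F2 probe set 228361_at was second, at 0.61. The other 18 lay between 1.304 and 2.62. Among all genes the 5 nearest to E2F8 were MCM10 at 0.12, DTL at 0.12, ERP27 at 0.20, BHMT at 0.26 and TK1 at 0.27. MCM10 helps to start replication forks, DTL directs the destruction of the licensing factor CDT1 in S phase, and TK1 makes thymidine phosphate for DNA synthesis. ERP27 is a protein of the endoplasmic reticulum and BHMT remethylates homocysteine. Their 12 h log2 ratios were -1.83, -1.73, -1.72, -1.97 and -1.64.

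**Figure D2:**
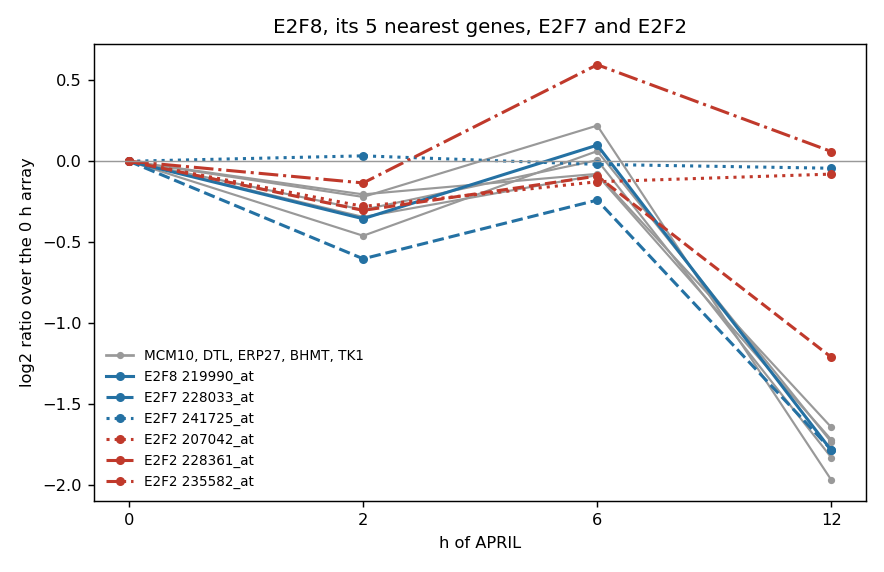
Log2 ratio over the 0 h array at 0, 2, 6 and 12 h of APRIL (evenly spaced) for E2F8 (solid blue), the 2 E2F7 probe sets (other blue lines), the 3 E2F2 probe sets (red) and the 5 genes nearest to E2F8 (grey). The 12 h ratio is -1.79 for E2F8, -1.78 and -0.04 for E2F7, and -1.21, -0.08 and 0.06 for E2F2.

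E2F8 had few genes with a like course. Within a distance of 0.2 of it lay 3 genes, against 2545 for E2F1, 1371 for E2F2, 1309 for RB1, 627 for RBL1 and 3529 for RBL2, whose gene medians were small. The probe sets of E2F2 and of RB1 disagreed, so the medians used for these genes follow no single probe set. The 5 nearest genes were RDM1P5, MYO6, PAK6, LINC00487 and SCOC for E2F1, and IFNA21, FTHL17, FGF22, DMRT2 and LIMD1-AS1 for E2F2. They were ROCK1, OR8G1, ZFAND4, CPD and CELSR2 for RB1, DHRS2, FABP1, SLC35D4, SRBD1 and MYBPH for RBL1, and LOC101929657, LINC01208, CHIC1, TMEM19 and SLC45A4 for RBL2. For these 5 members all distances were under 0.04, and so many genes lie that near that the order among them says little.

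Promoter sequences are shown for 4 members to set family genes with E2F motif matches beside the atypical member without such a match in this window. E2F1, E2F2 and RBL1 have matches to the E2F motif and E2F7 has none. The sequences are from RefSeq on GRCh38.p14, run 5′ to 3′ on the gene's strand from 250 bases before the start of the gene to 50 after it, and carry E2F motif matches in capitals. The motifs searched on both strands were TTTCCCGC, TTTCGCGC, TTTGCCGC and TTTGGCGC. Only exact matches were counted, so a window without a match may still hold an E2F site.
E2F1, chr20:33686336-33686635, minus strand: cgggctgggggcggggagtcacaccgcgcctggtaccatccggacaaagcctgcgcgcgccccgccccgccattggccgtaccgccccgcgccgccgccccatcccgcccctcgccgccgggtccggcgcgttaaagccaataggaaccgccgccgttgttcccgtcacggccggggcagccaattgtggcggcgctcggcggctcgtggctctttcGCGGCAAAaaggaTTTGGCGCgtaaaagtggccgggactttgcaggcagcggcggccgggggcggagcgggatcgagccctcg
E2F2, chr1:23531184-23531483, minus strand: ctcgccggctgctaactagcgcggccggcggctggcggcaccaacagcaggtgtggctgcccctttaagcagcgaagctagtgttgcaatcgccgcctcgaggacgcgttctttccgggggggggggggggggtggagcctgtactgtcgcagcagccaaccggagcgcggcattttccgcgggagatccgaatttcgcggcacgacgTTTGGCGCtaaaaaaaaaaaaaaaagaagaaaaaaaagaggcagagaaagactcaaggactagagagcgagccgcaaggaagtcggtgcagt
RBL1, chr20:37095948-37096247, minus strand: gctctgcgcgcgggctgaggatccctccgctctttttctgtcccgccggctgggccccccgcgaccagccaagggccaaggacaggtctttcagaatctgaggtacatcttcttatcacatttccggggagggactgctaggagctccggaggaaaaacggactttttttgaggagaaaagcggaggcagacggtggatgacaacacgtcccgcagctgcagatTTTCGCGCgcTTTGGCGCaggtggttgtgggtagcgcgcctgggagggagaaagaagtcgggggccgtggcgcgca
E2F7, chr12:77065520-77065819, minus strand: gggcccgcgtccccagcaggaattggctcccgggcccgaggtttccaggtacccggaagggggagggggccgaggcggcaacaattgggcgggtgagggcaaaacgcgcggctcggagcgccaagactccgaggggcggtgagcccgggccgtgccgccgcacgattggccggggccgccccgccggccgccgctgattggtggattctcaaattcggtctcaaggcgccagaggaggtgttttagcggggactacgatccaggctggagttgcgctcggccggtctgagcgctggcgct

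In E2F1 a reverse-strand match to TTTGCCGC lies 33 to 26 bases before the start and a TTTGGCGC match 20 to 13 bases before it. In RBL1 TTTCGCGC lies 26 to 19 bases and TTTGGCGC 16 to 9 bases before the start. E2F2 has 1 match, TTTGGCGC at 42 to 35 bases, and E2F3 has 1, a reverse-strand TTTCCCGC at 53 to 46 bases. Windows at the gene's outermost start were used for 7 members, of which these 4 held a match and E2F6, E2F7 and RBL2 held none. Of all 35116 windows 3.31% held at least 1 match and 0.145% held 2 or more, E2F1 and RBL1 among them. E2F5 and E2F8 have no window here, and the RB1 window, which is not at the gene's outermost start, was not used. The members with a match did not share a course: at 12 h E2F1 and E2F3 were near 0, RBL1 was modestly lower, and E2F2 differed between probe sets.

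By gene median the pocket proteins were closer to their 0 h values than the atypical E2Fs at 12 h. Under spike-in centring RB1 was at 0.52, RBL2 at 0.41 and RBL1 at -0.06. For RB1, the retinoblastoma protein, 203132_at had -0.14, -0.46, 0.14 and 0.16 at 0, 2, 6 and 12 h, and 211540_s_at had -0.02, 0.22, -0.62 and 0.02. The 2 probe sets ran in opposite directions at 2 h and at 6 h, with log2 ratios over 0 h of -0.33 and 0.23 at 2 h and of 0.27 and -0.60 at 6 h. At 12 h they were 0.30 and 0.04, both above 0, with a median of 0.17. For RBL2, the pocket protein of resting cells, 212331_at had -0.03, -0.18, 0.21 and 0.03, and 212332_at had 0, -0.07, 0 and 0.05. The RBL2 log2 ratio was -0.11 at 2 h, 0.12 at 6 h and 0.06 at 12 h.

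RBL1, the pocket protein whose gene is itself an E2F target, was lower at 12 h in 3 of its 4 probe sets. Probe set 205296_at had 0.36, 0.01, -0.01 and -0.21 at 0, 2, 6 and 12 h, and 1555004_a_at had 0.05, -0.05, 0.20 and -0.28. Probe set 1559307_s_at had 0.25, 0.45, -0.76 and -0.25, lowest at 6 h. The log2 ratios at 12 h over 0 h were -0.57, -0.33 and -0.50. Probe set 1555003_at spanned only 0.02 over the arrays, a range as narrow in 0.0973% of probe sets with 1 symbol. The median of the 4 was -0.42 at 12 h (SD 0.26), with 7.30% of all genes as low or lower, and it was -0.06 under spike-in centring.

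At 6 h the 7 member probe sets whose names end in _s_at were all below 0, from -1.01 for RBL1 to -0.12 for E2F1, with a median of -0.46. Of the other 14 member probe sets 7 were below 0 at 6 h and 6 above, with a median of -0.01. Over all probe sets on the array the 6 h median was 0.04 for names ending in _s_at or _x_at, with 43.4% below 0, and 0.02 for the others, with 45.3% below 0. At 12 h the 7 member probe sets were divided, 3 below 0 and 4 above. The 6 h ratios of E2F3 and E2F5 rest on such probe sets alone. Without them RB1 was at 0.27 and RBL1 at -0.02 at 6 h, where the medians over all their probe sets were -0.16 and -0.19.

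The comparison of roles at 12 h gave a median log2 ratio of -0.04 over the 3 activating E2Fs, -0.40 over the 4 repressing E2Fs among the members (without E2F4) and 0.06 over the 3 pocket proteins, beside 0.01 over all genes. The repressing E2Fs spanned from -1.79 to 0.67, so their median describes a divided class: E2F7 and E2F8 were below 0, and E2F6 and the E2F5 median were above. By gene median the activating E2Fs spanned from -0.08 to 0.0031 and the pocket proteins from -0.42 to 0.17. At 2 h the class medians were -0.10, -0.26 and -0.05, and 8 of 10 members were below 0, against 45.9% of all genes. At 6 h they were -0.16, -0.01 and -0.16, with 7 of 10 below 0, against 39.7% of all genes. Relative to the spike-in RNAs the 12 h class medians were 0.31, -0.05 and 0.41.

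**Figure D3:**
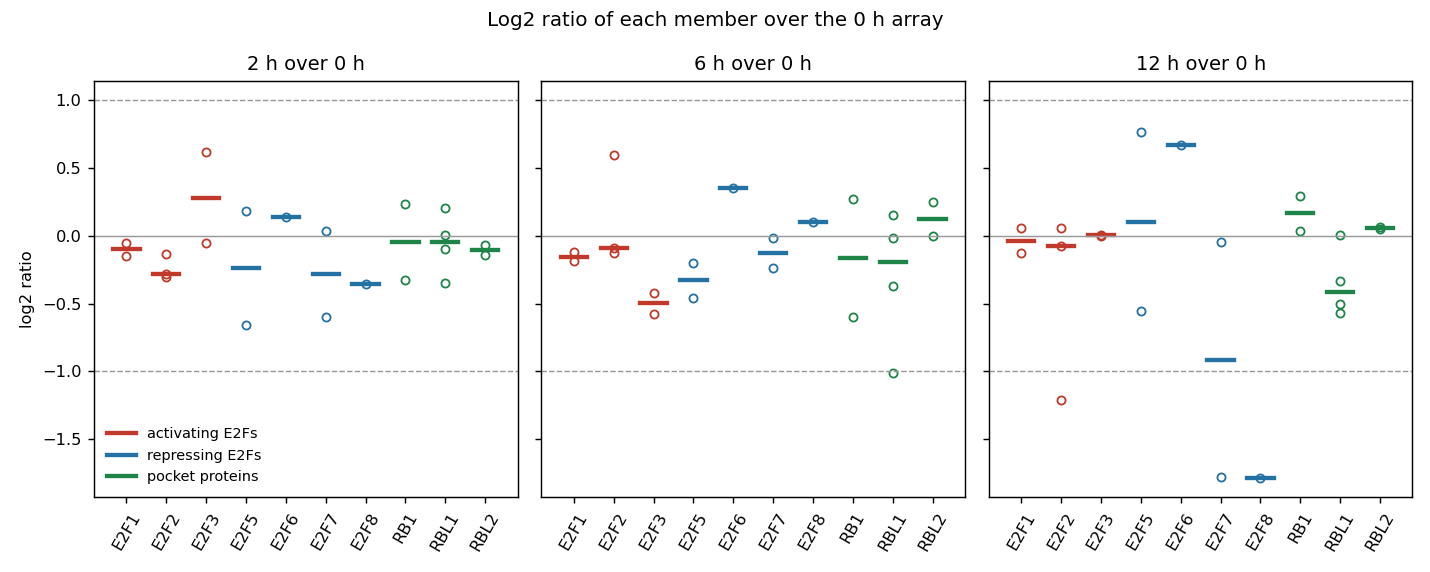
Log2 ratio of each member over the 0 h array at 2, 6 and 12 h. Open circles are probe sets, thick bars are the gene's median over them, colours give the role, and dashed lines mark 2-fold. At 12 h E2F8 at -1.79 is below the lower line, as are the circles of E2F7 at -1.78 and E2F2 at -1.21, while E2F6 is highest of the gene medians at 0.67.

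The partners and regulators of the family are given from lists chosen with earlier results of these data known. The DP partners TFDP2 and TFDP1 were at 0.17 and -0.06 at 12 h. The 3 probe sets of TFDP1 ran from -1.04 to 0.24, and the pair's median of 0.06 was -0.25 without _s_at and _x_at probe sets and -0.64 with each gene's widest-ranging probe set. Of 17 genes for kinases, cyclins and inhibitors that act on pocket proteins 0 were past 2-fold at 12 h, against 0.946% of all genes higher and 0.986% lower, with a median of 0.04, 9 above 0 and 8 below. That count rests on the median over probe sets: 3 were past 2-fold in either direction without _s_at and _x_at probe sets (list median -0.21), 1 with the mean over probe sets and 6 with the widest-ranging probe set. Among all genes 359, 362 and 1021 were past 2-fold in either direction with these settings, in that order, against 382 with the median. Cyclin E2 (CCNE2), which drives S-phase entry with CDK2, was at -0.98 with 2 probe sets at -1.498 and -0.46. CDK6, a kinase that phosphorylates RB1, was at -0.83, lower in 6 of 7 probe sets. Of 7 genes of the MuvB core and its activators 0 were past 2-fold and 6 were below 0, with a median of -0.13 that turned to 0.22 under spike-in centring. MYBL2, an E2F target that turns MuvB into an activator, was at -0.69, and LIN37, the subunit needed for repression by MuvB, at 0.20 with 2 probe sets at -0.04 and 0.44. Of 15 polycomb partners of E2F6 0 were past 2-fold, 10 were above 0 and 5 below, with a median of 0.11 and a range from -0.45 to 0.64. With the widest-ranging probe set 2 were past 2-fold in either direction, and without _s_at and _x_at probe sets 1 was. The 2 largest in size were YAF2 at 0.64 and MAX at 0.62, with all probe sets of both above 0, and at 6 h they were at -0.03 and 0.15.

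The genes that E2Fs control in S phase were lower at 12 h throughout the list, except that 4 of 32 turned above 0 under spike-in centring. Of 32 measured S-phase targets 32 were below 0 and 11 past 2-fold lower, with a median of -0.90, beside 47.7% below 0, 0.986% past 2-fold lower and a median of 0.01 over all genes. Under spike-in centring the list median was -0.55 and 6 were past 2-fold lower. UHRF1, which keeps DNA methylation through replication, was at -2.11 (4.31-fold lower), RRM2, a ribonucleotide reductase subunit, at -1.91, MCM10 at -1.83 and TK1 at -1.64. The list ran from -2.11 to -0.05. By gene median E2F8 at -1.79 and E2F7 at -0.91 lay within this range. The activating E2Fs, at -0.08 to 0.0031 by gene median, lay above all but 2 of the list. By probe set E2F7 228033_at at -1.78 and E2F2 228361_at at -1.21 lay within it, and E2F7 241725_at was at -0.04. The other E2F2 probe sets were at -0.08 and 0.06. At 6 h the list median was 0.0045, with 18 above 0 and 14 below, and at 2 h it was -0.12 with 28 below 0. Of the 28 listed genes with a promoter window 16 held 1 or more E2F matches, against 3.99% of all 27305 gene symbols with a window. The list was made of known E2F targets, so this excess is built into it and is not a result of these arrays.

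Of 20 G2/M genes that the MuvB complex controls 0 were past 2-fold at 12 h, 15 were below 0, against 47.7% of all genes, and the median was -0.37, which became -0.02 under spike-in centring with 11 below 0. That centring raises the 12 h ratio of every gene by the same amount. The share of all genes below 0 under it was not computed, so the 11 cannot be set against the 47.7%. CCNA2, cyclin A2, was at -0.77 and MAD2L1, a spindle checkpoint protein, at -0.73. At 6 h the same list had a median of 0.24, with 17 of 20 above 0 and 3 below, against 39.7% of all genes below 0. With the widest-ranging probe set 3 were past 2-fold in either direction at 12 h, as were 1021 of all 19775 genes. Of 9 measured genes through which E2F1 is known to act in apoptosis 1 was past 2-fold higher at 12 h, against 0.946% of all genes, with a median of 0.09 that was 0.44 under spike-in centring, where 9 of 9 were above 0. Since that centring raises every gene alike and the share of all genes above 0 under it was not computed, the 9 of 9 has no background here. The gene past 2-fold was PMAIP1 (NOXA), a BH3-only protein, at 1.12, with probe sets at 1.16 and 1.09. Both of its probe sets are of the _s_at kind, so 0 were past 2-fold without such probe sets, and 2 were, in either direction, with the widest-ranging one. The other members of this list lay between -0.29 and 0.32.

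**Figure D4:**
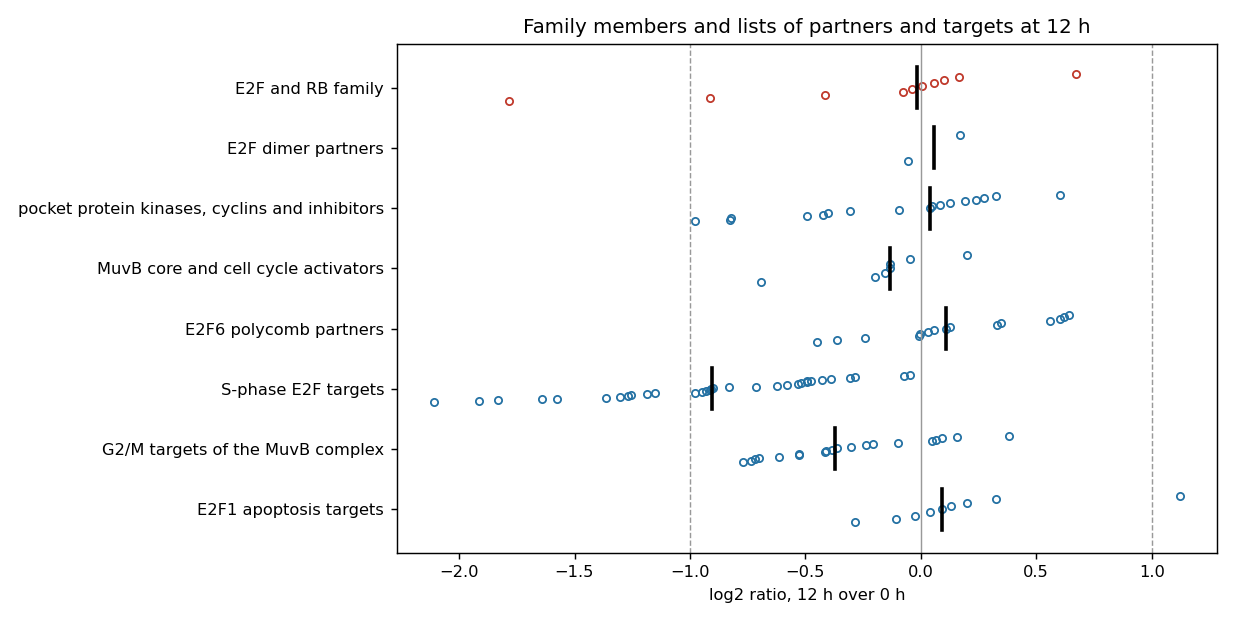
Log2 ratio at 12 h over 0 h of the 10 family genes (red) and of the measured genes of each list (blue), with the median of each row as a black bar and dashed lines at 2-fold. All 32 S-phase targets lie below 0 with a median of -0.90, while the family's median is -0.02 and only E2F8, at -1.79, is past the line.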

How the data were processed

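Total RNA of HepG2 cells was measured on Affymetrix U133 Plus 2.0 arrays, 1 for each of 0, 2, 6 and 12 h. The deposited log2 values of 54675 probe sets were made by the authors with RMA, per the submitters' processing notes, with no version named. In the file the median of every probe set over the arrays is 0 within 1e-06, and no source at hand says how this centring was done. Base 2 and the direction (higher means more transcript) were taken from how RMA works and are not stated. Serum starvation is put at 24 h in the design text, while the labels' protocols say overnight.

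Probe sets were named from the platform annotation, with symbols brought up to date by gene identifier in RefSeq (GRCh38.p14). Log2 ratios between arrays were computed per probe set with pandas 2.3.3 in Python 3.11.15. Control probe sets were left out of genes. The computation was tested on simulated data. With 1 array per group no test was made, and the small number of arrays limits precision. The family, its classes and all lists were chosen with earlier results of these data known. Named list genes were those past 2-fold at 12 h, at most the 4 largest, or otherwise the 2 largest. Alternatives were centring on array medians or on spike-ins, leaving out _s_at and _x_at probe sets, the mean over a gene's probe sets or its widest-ranging probe set, the other 3 arrays' mean as reference, and 1.5-fold and 3-fold thresholds.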

Additional observations from a re-analysis of the deposited data

How the results depend on the processing

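Centring on array medians moved no member ratio or class median by as much as the yardstick of 0.16, and no S-phase count by over 1.5 times. Centring on the spike-in RNAs moved the 12 h medians to 0.31 for activating E2Fs, -0.052 for repressing E2Fs, -0.996 for the atypical pair (-1.35 before), 0.41 for pocket proteins and -0.55 for S-phase targets, of which 6 were past 2-fold, and placed 1 member past 2-fold higher. It also took the count over all 19775 genes, in either direction, from 382 to 770 at 12 h. Without _s_at and _x_at probe sets the pocket proteins were at 0.12 at 6 h and the repressing E2Fs at -0.91 at 12 h. E2F5 has no other probe set, so that median is over E2F6, E2F7 and E2F8. Their own 12 h ratios, 0.67, -0.91 and -1.79, were unchanged. With each gene's widest-ranging probe set the pocket proteins were at 0.20 at 2 h and -0.60 at 6 h, the atypical pair at -1.78 at 12 h, and members past 2-fold lower numbered 1 at 6 h and 3 at 12 h, with 1 S-phase target past 2-fold at 6 h. Among all 19775 genes that setting put 414 past 2-fold at 6 h and 1021 at 12 h, in either direction. With the median these counts were 76 and 382. Against the mean of the other arrays, which holds the 12 h array, the repressing E2Fs were at -0.050, 0.18 and -0.24 at 2, 6 and 12 h, the atypical pair at 0.13 and 0.54 at 2 and 6 h, and S-phase targets at 0.20 and 0.31. At 1.5-fold 2 members were lower and 1 higher at 12 h, with 20 S-phase targets, and at 3-fold 4 S-phase targets were past it. Of all 19775 genes 1612 were past 1.5-fold and 71 past 3-fold at 12 h, in either direction. The mean over probe sets moved 2 of 30 member ratios. Apart from the loss of E2F5 from its class, the cause was not tested for the probe set settings. No paired analysis was possible because each time has 1 array.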
